A study of Homo sapiens with 8 samples.

Results

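The genes described here make polyamines or control their amount. They were chosen by name as rows of the deposited table, from a list of 9 genes: ODC1, SRM, SMS, AMD1, SAT1, OAZ1, OAZ2, AZIN1 and ARG2. Of these, 8 were found by symbol among the 52576 genes of the table. No row carried the symbol OAZ2, but the Ensembl identifier of OAZ2 (ENSG00000180304) stood there under the name RP11-330L19.5. That row is given as OAZ2 with this reservation, since the gene model behind it may not be that of OAZ2 alone, and it is left out of the counts of members.

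The 8 RNA-seq libraries came from NCI-H2009, an established line of human lung adenocarcinoma cells. All were first transfected with dCas9-KRAB, a catalytically dead Cas9 that binds DNA but leaves it uncut, joined to a domain that recruits chromatin repressors to the site chosen by a guide RNA. The 4 groups of 2 libraries then received e3 guide 1, e3 guide 2, a non-targeting guide without a site in the human genome, or no guide RNA. Guides 1 and 2 recognize the same enhancer, e3. The labels do not name its gene, and other work on this enhancer, not used here, links it to MYC. Whether the 2 libraries of each group are separate cultures is not stated, so p-values speak to the spread among these libraries, possibly a technical one.

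Polyamines (putrescine, spermidine and spermine) are small, positively charged molecules that bind nucleic acids and are needed for cell growth. Ornithine decarboxylase, encoded by ODC1, makes putrescine from ornithine. AMD1 makes the aminopropyl donor, and the synthases SRM and SMS use it to build spermidine and then spermine. SAT1 acetylates the finished polyamines, which marks them for export or oxidation. Antizymes, encoded by OAZ1 and OAZ2, bind ornithine decarboxylase and send it to the proteasome, and the antizyme inhibitor AZIN1 binds antizymes in its place. ODC1 is a classic target gene of MYC. Several of these proteins are controlled through translation and degradation, which RNA levels do not show.

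The values are RPKM, the reads of a gene divided by its length and by the library's depth. Between 3868829 and 5745112 reads per library lay in genes, as inferred from the steps between low values. MYC itself lay between 36.2 and 43.4 RPKM in the e3 libraries and between 72.7 and 90.1 RPKM in the control libraries. It fell by 1.02 ± 0.10 on the log2 scale (SE; limma, adjusted p = 0.00215). MYC had 88.9 and 90.1 RPKM with the non-targeting guide and 74.6 and 72.7 RPKM without a guide. That difference was 0.28 ± 0.05 (limma, adjusted p = 0.0133). Its fall was 1.16 ± 0.09 against the non-targeting guide (adjusted p = 0.00231) and 0.88 ± 0.09 against no guide (adjusted p = 0.000555). The no-guide libraries stood apart from all others, with -38.3 and -36.9 on the first principal component, against 5.74 to 18.5 for the other 6. The tested members are therefore also given against each control alone. The 9 epithelial markers summed to 3063 to 3166 RPKM with the e3 guides and to 2684 to 3497 RPKM in the controls, with NAPSA and SFTPB, markers of differentiated alveolar cells, below a mean of 1 RPKM. Of the 7 tested, CDH1 was higher (208.7 ± 6.31 RPKM with the e3 guides and 178.0 ± 5.46 RPKM in the controls, SD, n = 4 each; change 0.23, limma, adjusted p = 0.032), none was lower and 6 did not pass, among them KRT7 (0.25), EPCAM (-0.17) and NKX2-1 (-0.29). Over all tested genes 5.2% were called, 2.63% higher. NKX2-1 averaged 27.2 RPKM with the e3 guides, 26.1 RPKM with the non-targeting guide and 42.6 RPKM without a guide. Against the non-targeting guide alone 3 of the 7 were higher and none lower, beside 3.3% of all genes higher. Against no guide alone 1 was higher and 3 were lower, beside 8.68% and 8.03%. The leukocyte markers summed to 28.6 to 32.1 RPKM with the e3 guides and to 12.4 to 24.1 RPKM in the controls, nearly all of it CD68, a lysosomal gene also expressed outside leukocytes (change 0.78 ± 0.19, adjusted p = 0.0447). CD3E was listed at 0 in every library, and PTPRC did not exceed 0.0469 RPKM in any. The fibroblast markers summed to 6.36 to 7.29 RPKM with the e3 guides and to 3.35 to 5.76 RPKM in the controls, with COL3A1 and DCN listed at 0 throughout. Most of that sum was COL1A1, at 6.26 ± 0.504 RPKM with the e3 guides and 4.55 ± 0.999 RPKM in the controls (SD, n = 4 each; change 0.40, adjusted p = 0.141), and COL1A2 averaged 0.496 RPKM with the e3 guides and 0.107 RPKM in the controls. The endothelial markers VWF, CDH5 and KDR summed to at most 0.392 RPKM with the e3 guides and at most 0.503 RPKM in the controls. The part of these markers in the results was not tested.

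OAZ1 was the most abundant member, with a mean of 359 RPKM over the 8 libraries and a range of 301 to 389 RPKM. SMS followed at 142.6 RPKM, from 132.2 to 161.3 RPKM. AZIN1 averaged 69.1 RPKM, SAT1 62.3 RPKM, ODC1 49.1 RPKM, SRM 35.9 RPKM and AMD1 32.0 RPKM. The row of OAZ2 averaged 23.8 RPKM and ARG2 0.728 RPKM. OAZ1 and SMS did not overlap with their neighbours in this order, and neither did ARG2. From AZIN1 down to OAZ2 the range of each gene over the libraries overlapped with that of the next. The steadiest members were AZIN1, with a coefficient of variation of 5.75% over the libraries, and SMS, with 6.36%. SAT1 varied most among the members above 1 RPKM, by 25.2%.

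**Figure D1:**
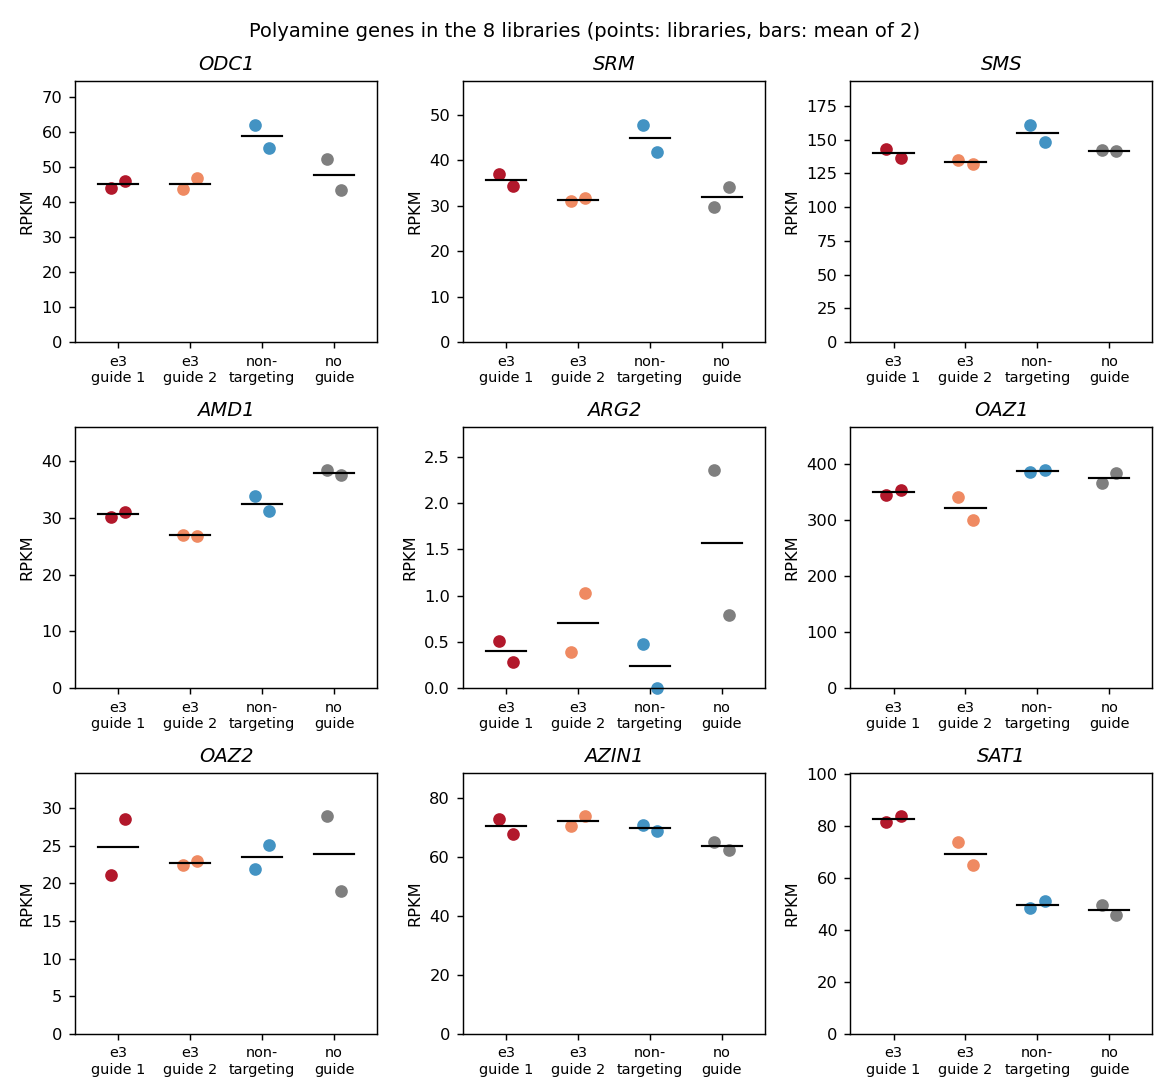
RPKM of each polyamine gene (vertical axes, from 0) in the libraries of e3 guide 1, e3 guide 2, the non-targeting guide and no guide; points are libraries and bars are the means of 2. OAZ2 is the row found by identifier. SAT1 lies between 64.9 and 83.9 RPKM with the e3 guides and between 45.6 and 51.2 RPKM in the controls, while ODC1 and SRM are highest with the non-targeting guide.

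SAT1, the gene of polyamine breakdown (ENSG00000130066.11, on the X chromosome), stood higher in each e3 library than in any control library. Guide 1 libraries had 81.6 and 83.9 RPKM, and guide 2 libraries had 73.7 and 64.9 RPKM. The controls had 48.3 and 51.2 RPKM with the non-targeting guide and 49.5 and 45.6 RPKM without a guide. All 4 control values lay close together, and the lowest e3 value was the second library of guide 2. The e3 mean was 76.0 ± 8.59 RPKM and the control mean 48.7 ± 2.35 RPKM (SD, n = 4 each), a ratio of 1.56. On the log2 scale SAT1 rose by 0.63 ± 0.09 (SE; limma, adjusted p = 0.007), with 481 to 1060 reads behind each value. In bulk RNA, more RNA per cell and more cells with the RNA cannot be told apart. The exact two-sided permutation p was 0.0286, the smallest that the 70 arrangements of 8 libraries can give. Full separation of the e3 from the control libraries held for 15.1% of all tested genes, 7.58% higher and 7.51% lower. With the mean of each group as 1 sample the adjusted p of SAT1 was 0.407 (limma), a setting in which 1 of all 13979 genes was called.

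SAT1 was the only member called between the e3 guides and all controls, of 7 tested (limma, adjusted p under 0.05). Over all 13979 genes tested, those with a mean of at least 1 RPKM, 5.2% were called, 2.63% higher and 2.58% lower. ARG2 was below the minimum mean and was not tested. The median change of the 7 members was -0.17 on the log2 scale, and that of all tested genes was -0.02. Against the non-targeting guide alone the member median was -0.18, beside 6.9e-05 for all tested genes. Against no guide alone it was -0.05, beside -0.03. Between the controls it was 0.12 (non-targeting guide minus no guide), beside -0.01.

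SAT1 rose with each guide alone against the controls. The log2 change was 0.75 ± 0.07 with guide 1 (limma, adjusted p = 0.000554), where SAT1 was the only member called and 8.99% of all genes were called, 4.96% higher and 4.03% lower. With guide 2 it was 0.50 ± 0.07 (adjusted p = 0.00245), where 14.5% of all genes were called, 6.85% higher and 7.62% lower. These comparisons share their 4 control libraries. The difference between the guides was tested itself, and SAT1 differed by -0.25 ± 0.08 (guide 2 minus guide 1), which did not pass (adjusted p = 0.327). SAT1 was also called against each control alone, at 0.59 ± 0.10 against the non-targeting guide (adjusted p = 0.0181) and at 0.66 ± 0.10 against no guide (adjusted p = 0.00451). Single libraries were not left out of the comparison with no guide. The call against the non-targeting guide was lost without either library of that guide, where 1 control library is left and few genes can pass. The change of SAT1 was then 0.55 without its first and 0.64 without its second library. Between the controls SAT1 differed by 0.07 ± 0.08 (non-targeting guide minus no guide, adjusted p = 0.644).

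ODC1, the first enzyme of the pathway (ENSG00000115758.7, chromosome 2), was called against the non-targeting guide and not against no guide. Guide 1 libraries had 44.1 and 45.9 RPKM, and guide 2 libraries had 43.6 and 46.8 RPKM. It had 62.0 and 55.2 RPKM with the non-targeting guide, and 52.2 and 43.3 RPKM without a guide. All 4 e3 libraries lay below both non-targeting libraries, but they overlapped with the no-guide libraries, which differed between themselves. The share of all genes separated from the non-targeting libraries was not counted, here or for SRM and SMS below. Between 528 and 860 reads lay behind each value. Against the non-targeting guide alone ODC1 fell by 0.37 ± 0.07 on the log2 scale (limma, adjusted p = 0.0216), to 76.9% of the mean there. There 3 members were called, ODC1 and SRM lower and SAT1 higher, and over all genes 6.84% were called, 3.3% higher and 3.54% lower. Against no guide the change was -0.08 ± 0.08 (adjusted p = 0.597), and against all controls it was -0.22 ± 0.10 (adjusted p = 0.225). The fall was no longer called without the first library of guide 2 (adjusted p = 0.0569). It was also lost without the first (change -0.29) or second (-0.45) non-targeting library, where 1 control library is left and few genes can pass. Between the controls ODC1 differed by 0.30 ± 0.10 (non-targeting guide minus no guide, adjusted p = 0.101), and that difference passed without the first no-guide library (0.43, adjusted p = 0.0479).

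SRM, which makes spermidine (ENSG00000116649.4, chromosome 1), was also highest with the non-targeting guide. Its levels were 36.9 and 34.3 RPKM in guide 1 libraries, 31.0 and 31.6 RPKM in guide 2 libraries, 47.8 and 41.9 RPKM with the non-targeting guide, and 29.6 and 34.2 RPKM without a guide. Both non-targeting libraries exceeded every other library, and the e3 and no-guide libraries overlapped. Between 252 and 424 reads lay behind each value. Against the non-targeting guide SRM fell by 0.41 ± 0.09 (limma, adjusted p = 0.0376), to 74.6% of the mean there. Against no guide the change was 0.07 ± 0.10 (adjusted p = 0.696). Between the controls SRM rose by 0.48 ± 0.10 with the non-targeting guide relative to no guide (adjusted p = 0.0161), the only member called there, where 12.4% of all genes were called, 6.55% higher and 5.81% lower. The fall of SRM was lost without any 1 of 5 of the 6 libraries, and was kept without the first library of guide 1. Where an e3 library was left out, the lost calls had adjusted p between 0.0634 and 0.0852. Without a non-targeting library 1 control library is left and few genes can pass. The change was then -0.32 without the first and -0.51 without the second. The fall was also lost with the replicate number as a block (adjusted p = 0.0584). The rise between the controls was lost without the first non-targeting library (adjusted p = 0.0996) and without the first no-guide library (adjusted p = 0.0844).

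AMD1, which makes the aminopropyl donor (ENSG00000123505.9, chromosome 6), stood in another order. Guide 1 libraries had 30.2 and 31.1 RPKM, and guide 2 libraries had 27.1 and 26.7 RPKM. The controls had 33.9 and 31.1 RPKM with the non-targeting guide and 38.4 and 37.5 RPKM without a guide. Every e3 library lay below every control library, though the nearest values, 31.13 RPKM with guide 1 and 31.14 RPKM with the non-targeting guide, were almost equal. Such a separation held for 15.1% of all tested genes, 7.58% higher and 7.51% lower. Against all controls the change was -0.28 ± 0.09 and did not pass (limma, adjusted p = 0.0945; exact two-sided permutation p = 0.0286, the smallest possible). AMD1 fell by 0.39 ± 0.08 against no guide (adjusted p = 0.0167), where 16.7% of all genes were called, 8.68% higher and 8.03% lower, and by 0.37 ± 0.06 with guide 2 against all controls (adjusted p = 0.00628). With guide 1 the change was -0.19 ± 0.06 (adjusted p = 0.0982), and against the non-targeting guide alone -0.17 ± 0.09 (adjusted p = 0.295). The call with guide 2 was lost without its second library (adjusted p = 0.055).

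SMS, which makes spermine (ENSG00000102172.11, on the X chromosome), varied least among the enzymes of synthesis. Its levels were 143.2 and 136.7 RPKM in guide 1 libraries, 135.3 and 132.2 RPKM in guide 2 libraries, 161.3 and 148.2 RPKM with the non-targeting guide, and 142.6 and 141.4 RPKM without a guide. The first library of guide 1 lay above both no-guide libraries, and all e3 libraries lay below the non-targeting ones. The change was -0.11 ± 0.06 against all controls (adjusted p = 0.285) and -0.18 ± 0.06 against the non-targeting guide (adjusted p = 0.112). Against no guide it was -0.05 ± 0.05 (adjusted p = 0.532). ARG2, the mitochondrial arginase that can supply ornithine (ENSG00000081181.3, chromosome 14), had 0.508, 0.285, 0.384 and 1.03 RPKM in the e3 libraries. It had 0.474 and 0 RPKM with the non-targeting guide and 2.36 and 0.786 RPKM without a guide. At most 10 reads lay behind any of these values, and a difference was not detectable at this depth.

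**Figure D2:**
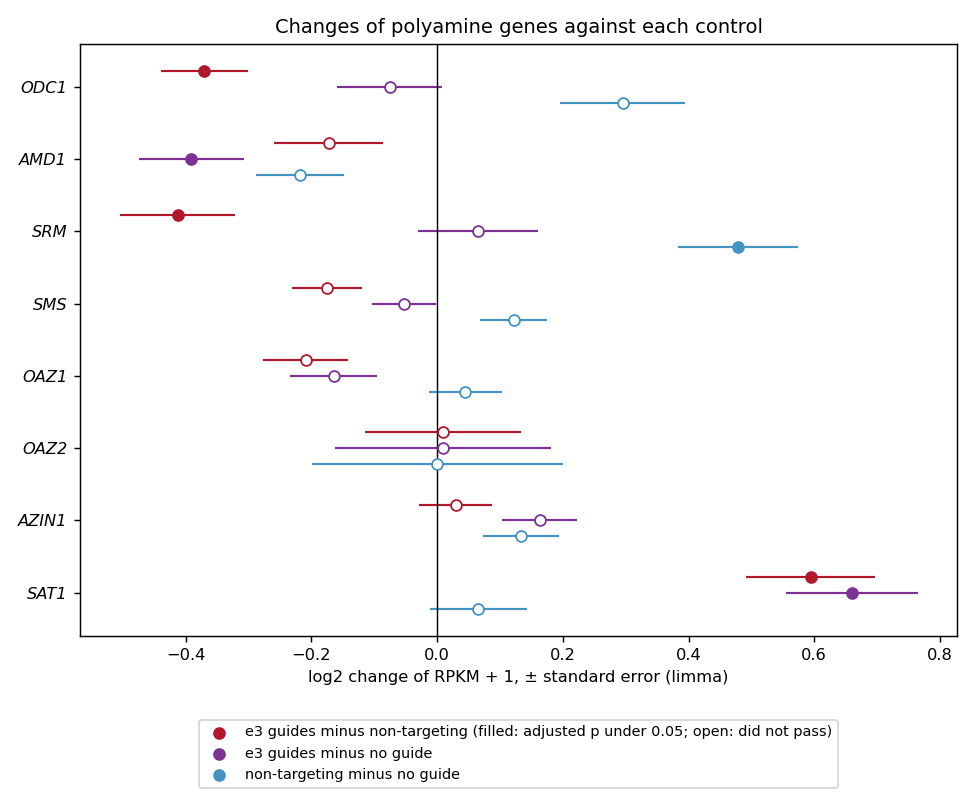
Log2 change of RPKM + 1 with its standard error (horizontal axis) for each tested polyamine gene and the row of OAZ2, for the e3 guides set against the non-targeting guide, the e3 guides against no guide, and the non-targeting guide against no guide; filled points had an adjusted p under 0.05. The comparisons share libraries. SAT1 is called against both controls, ODC1 (-0.37) and SRM (-0.41) against the non-targeting guide, and AMD1 (-0.39) against no guide.

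Among the genes of control, OAZ1, the main antizyme gene (ENSG00000104904.4, chromosome 19), stood lower in each e3 library than in any control library. Its levels were 345.6 and 354.3 RPKM in guide 1 libraries, 341.8 and 300.7 RPKM in guide 2 libraries, 385.5 and 389.3 RPKM with the non-targeting guide, and 366.4 and 384.7 RPKM without a guide. The second library of guide 2 was the lowest, and the gap between the e3 and control libraries was narrow beside it. Of all tested genes 15.1% were separated in this way, 7.58% higher and 7.51% lower. Against all controls the change was -0.19 ± 0.06 and did not pass (limma, adjusted p = 0.107; exact two-sided permutation p = 0.0286). It was -0.21 ± 0.07 against the non-targeting guide (adjusted p = 0.112) and -0.16 ± 0.07 against no guide (adjusted p = 0.149). OAZ1 fell by 0.25 ± 0.05 with guide 2 (adjusted p = 0.0152). Without the second library of guide 2 that change was -0.16 (adjusted p = 0.0824), and without a filter on low values its adjusted p was 0.0527. With guide 1 it was -0.12 ± 0.05 (adjusted p = 0.183).

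AZIN1, the antizyme inhibitor gene (ENSG00000155096.8, chromosome 8), kept to a narrow range. Its levels were 73.1 and 67.9 RPKM in guide 1 libraries, 70.7 and 73.9 RPKM in guide 2 libraries, 71.1 and 68.7 RPKM with the non-targeting guide, and 65.0 and 62.3 RPKM without a guide. The e3 and non-targeting libraries overlapped, and both no-guide libraries lay below them. The share of all genes with the no-guide libraries set apart in this way was not counted. The change was 0.10 ± 0.06 against all controls (adjusted p = 0.397) and 0.03 ± 0.06 against the non-targeting guide (adjusted p = 0.828). Against no guide it was 0.16 ± 0.06 (adjusted p = 0.106). AZIN1 lies on the chromosome of MYC. The row of OAZ2, a second antizyme, ranged from 21.1 to 28.5 RPKM with the e3 guides and from 19.0 to 28.9 RPKM in the controls, and its change was 0.01 ± 0.13 (adjusted p = 0.975). It was 0.01 ± 0.12 against the non-targeting guide (adjusted p = 0.98) and 0.01 ± 0.17 against no guide (adjusted p = 0.977).

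Guides 1 and 2 were compared directly, and none of the 7 members tested was called (limma). An unadjusted p under 0.05 was found for 2 of them, beside 1451 of all 13979 genes. The 2 members were SAT1 (unadjusted p = 0.0115) and AMD1, which differed by -0.18 ± 0.07 (guide 2 minus guide 1, unadjusted p = 0.0345, adjusted p = 0.432). Over all genes 0.0286% were called, 0.0215% higher and 0.00715% lower. ODC1 differed by 0.00 ± 0.10 between the guides.

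Because RPKM is per length, members can be set against each other within a library. The ratio of SAT1 to ODC1 was 1.85 and 1.83 with guide 1 and 1.69 and 1.39 with guide 2. It was 0.779 and 0.928 with the non-targeting guide and 0.948 and 1.05 without a guide. SAT1 was thus the more abundant of the pair in each e3 library, and in the controls in the second no-guide library only. AZIN1 over ODC1 was between 1.48 and 1.66 with the e3 guides and between 1.15 and 1.44 in the controls. OAZ1 over AZIN1 was between 4.07 and 5.22 with the e3 guides and between 5.42 and 6.18 in the controls. The ratio of OAZ1 to ODC1 overlapped, at 6.43 to 7.85 with the e3 guides and 6.21 to 8.89 in the controls. SMS over SRM overlapped too, at 3.88 to 4.36 with the e3 guides and 3.37 to 4.81 in the controls. So did SMS over AMD1, at 4.39 to 4.996 with the e3 guides and 3.71 to 4.76 in the controls. The share of all gene pairs with separated ratios was not counted. These ratios were formed after the levels were known and are given as a description.

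**Figure D3:**
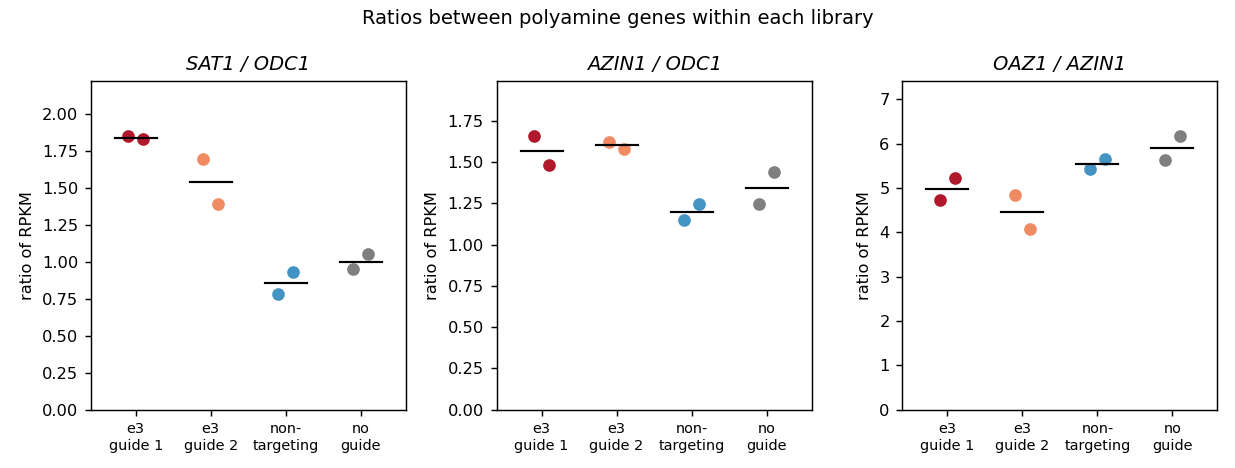
Ratios of RPKM between polyamine genes within each library (vertical axes, from 0) in the libraries of e3 guide 1, e3 guide 2, the non-targeting guide and no guide; points are libraries and bars are the means of 2. SAT1 over ODC1 lies between 1.39 and 1.85 with the e3 guides and between 0.779 and 1.05 in the controls.

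Profiles over the 8 libraries were compared on log2(RPKM + 1), scaled for each gene to a mean of 0 and an SD of 1, by the root mean square distance between profiles. SRM and SMS were the closest pair of members (0.49), followed by ODC1 and SMS (0.56). SAT1 was nearest to AZIN1 (0.89), and the farthest pair was AMD1 and AZIN1 (1.78). Among 13978 other genes, the profiles nearest to that of ODC1 were those of EIF2S2, a subunit of the initiation factor eIF2 (0.19), SUB1, a transcriptional coactivator (0.24), and ZNF22, a zinc finger gene (0.24). EIF2S2 had 71.9, 78.4, 74.8 and 77.9 RPKM in the e3 libraries, 95.8 and 89.1 RPKM with the non-targeting guide, and 86.8 and 75.5 RPKM without a guide. These distances describe 8 libraries in 4 groups and carry no test.

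The start regions of the 3 members called against the non-targeting guide are shown. They were searched for the letters of an E-box, the motif bound by MYC with its partner MAX. ODC1 and SRM, which hold such letters, were not called against no guide. The regions to show were picked after the calls and the matches were known, and a link between motif and change was not tested. The windows run from 250 bases before to 50 bases after a start site and come from RefSeq on GRCh38.p14, which is not the build named for the deposited values. Capitals mark CACGTG and the related CACGCG, each searched on both strands.
ODC1, chr2:10448278-10448577, minus strand: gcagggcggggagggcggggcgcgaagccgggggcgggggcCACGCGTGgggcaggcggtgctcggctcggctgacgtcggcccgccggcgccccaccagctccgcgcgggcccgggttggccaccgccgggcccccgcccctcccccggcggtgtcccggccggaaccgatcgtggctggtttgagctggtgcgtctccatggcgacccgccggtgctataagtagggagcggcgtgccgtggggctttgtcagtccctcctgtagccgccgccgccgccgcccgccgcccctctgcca
ODC1, second start site, chr2:10447963-10448262, minus strand: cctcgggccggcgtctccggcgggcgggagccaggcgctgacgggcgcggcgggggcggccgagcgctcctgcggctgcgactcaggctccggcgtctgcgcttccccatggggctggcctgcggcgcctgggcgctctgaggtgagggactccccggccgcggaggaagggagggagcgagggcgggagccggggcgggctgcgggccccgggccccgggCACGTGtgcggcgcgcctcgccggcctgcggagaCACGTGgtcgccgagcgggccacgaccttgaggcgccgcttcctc
SRM, chr1:11059969-11060268, minus strand: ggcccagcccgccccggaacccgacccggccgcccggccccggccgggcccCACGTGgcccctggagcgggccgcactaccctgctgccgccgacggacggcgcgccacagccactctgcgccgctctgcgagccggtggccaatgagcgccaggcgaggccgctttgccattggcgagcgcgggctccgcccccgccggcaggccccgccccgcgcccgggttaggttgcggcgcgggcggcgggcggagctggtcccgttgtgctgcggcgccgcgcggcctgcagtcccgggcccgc
SAT1, chrX:23782923-23783222, plus strand: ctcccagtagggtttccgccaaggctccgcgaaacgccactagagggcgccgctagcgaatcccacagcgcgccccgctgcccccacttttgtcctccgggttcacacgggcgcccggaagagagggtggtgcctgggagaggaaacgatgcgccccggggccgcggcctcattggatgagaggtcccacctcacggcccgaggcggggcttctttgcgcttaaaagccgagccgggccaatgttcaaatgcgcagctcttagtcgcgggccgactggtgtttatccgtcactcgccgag

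In the second window of ODC1, CACGTG began 29 bases before the start site and again at base 6 after it. In SRM it began 199 bases before the start site. In the first window of ODC1, CACGCG began 209 bases before the start site and overlapped with its own reverse complement, so that both strands matched at a single element. No match to either motif was found in the windows of SAT1, AMD1, SMS, OAZ1, OAZ2 or ARG2. Among these, AMD1 was called lower against no guide and with guide 2, and OAZ1 was called lower with guide 2. Of 35116 windows in the table, 7.26% held CACGTG, 0.664% held it 2 or more times, and 11.4% held CACGCG. The cyclic AMP response motif TGACGTCA occurred at 2 positions in the window of ARG2, and 1.85% of windows held it. In all, windows of 8 of the 9 genes were examined, and AZIN1 on chromosome 8 was not among them. A match of letters is a description of these windows, not a binding site.

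Genes of neighbouring pathways were set against all controls, where 5.2% of all tested genes were called, 2.58% lower. In that comparison each list held 0 or 1 called gene, near that share, so its counts are no result about the lists. For arginine and ornithine supply, 12 of 17 listed genes were tested, and 1 fell with the e3 guides, none rose and 11 did not pass. SLC7A5, which carries large neutral amino acids, fell by 0.70 ± 0.05 (limma, adjusted p = 0.000583), with 45.2 ± 1.30 RPKM in the e3 libraries and 74.2 ± 2.31 RPKM in the controls (SD, n = 4 each). ASS1, which makes argininosuccinate, had a change of -0.82 ± 0.24 (adjusted p = 0.0853), but it averaged 1.39 RPKM with the e3 guides, 2.11 RPKM with the non-targeting guide and 4.76 RPKM without a guide. PYCR1, a proline enzyme, and GATM, of creatine synthesis, did not pass (-0.17 and -0.59). The median of the list was -0.15, beside -0.02 for all tested genes. SLC7A5 kept its call without any single library. With group means as samples, where 1 of all 13979 genes was called, its adjusted p was 0.407. ASS1 passed without the second non-targeting library (-1.02, adjusted p = 0.0367). Against no guide alone 4 of the 12 genes fell and none rose, beside 8.03% of all genes lower. With guide 2 alone 5 fell and none rose, beside 7.62% lower, and with guide 1 alone 2 fell and none rose, beside 4.03%. Between the controls 4 were lower with the non-targeting guide and none higher, beside 5.81% lower.

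The methionine cycle supplies S-adenosylmethionine, the substrate of AMD1, and the salvage pathway recovers what polyamine synthesis leaves over. Of 17 listed genes 14 were tested, and 1 fell, none rose and 13 did not pass, beside 5.2% called over all genes. AHCY, which clears S-adenosylhomocysteine, fell by 0.36 ± 0.06 (limma, adjusted p = 0.0106), with 82.3 ± 4.57 RPKM in the e3 libraries and 105.8 ± 2.42 RPKM in the controls (SD, n = 4 each). MTAP, the first enzyme of salvage, had a change of -0.35 ± 0.09 (adjusted p = 0.056), MTRR of -0.31 ± 0.08 (adjusted p = 0.0598) and MAT2A, which makes S-adenosylmethionine, of -0.23 ± 0.07 (adjusted p = 0.106). The median of the list was -0.11. AHCY kept its call without any single library. With group means as samples, where 1 of all 13979 genes was called, its adjusted p was 0.413. MTAP passed without the first non-targeting library (-0.41, adjusted p = 0.0488). Against no guide alone 5 of the 14 genes fell and 1 rose, beside 8.03% of all genes lower and 8.68% higher. Between the controls 2 were lower with the non-targeting guide and none higher, beside 5.81% lower.

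Spermidine is also used to make hypusine, a modified amino acid of the translation factor eIF5A. All 5 genes listed for it were tested and none passed against all controls (limma). Of these, 3 were at an unadjusted p under 0.05, beside 3102 of all 13979 genes. EIF5A had 369.0 ± 18.1 RPKM with the e3 guides and 449.7 ± 52.4 RPKM in the controls (SD, n = 4 each), a change of -0.28 ± 0.08 (adjusted p = 0.0866). Its close copy EIF5AL1 had a change of -0.34 ± 0.10 (adjusted p = 0.0758), and reads may be split between them, so both values are uncertain. EIF5A2 and the hydroxylase gene DOHH did not pass (0.39 and -0.04). Against no guide alone EIF5A2 rose by 0.65 ± 0.16 (limma, adjusted p = 0.0298). There 1 of the 5 genes was higher and none lower, beside 8.68% of all genes higher, and EIF5A changed by -0.14 ± 0.06 (adjusted p = 0.156). Against the non-targeting guide alone EIF5A fell by 0.42 ± 0.05 (adjusted p = 0.00736), and it averaged 493.4 RPKM with the non-targeting guide and 406.0 RPKM without a guide. That fall was no longer called without the first (change -0.43) or the second (-0.41) non-targeting library, where 1 control library is left and few genes can pass. EIF5A was called against all controls without the first no-guide library (-0.35, adjusted p = 0.0447).

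Of 18 genes for polyamine breakdown, transport and other control, 13 were tested, and 1 fell, none rose and 12 did not pass, beside 5.2% called over all genes. SLC3A2, the shared heavy chain of amino acid transporters such as SLC7A5, fell by 0.30 ± 0.07 (limma, adjusted p = 0.0397), with 44.1 ± 2.73 RPKM in the e3 libraries and 54.6 ± 3.25 RPKM in the controls (SD, n = 4 each). That call was near the threshold and was lost in 13 of 16 alternatives, at an adjusted p of up to 0.414. ATP13A2, a lysosomal polyamine exporter, had 28.4 ± 3.64 RPKM with the e3 guides and 22.4 ± 0.886 RPKM in the controls (SD, n = 4 each), a change of 0.32 ± 0.09 (adjusted p = 0.0759). PSME3, a proteasome activator, and AGMAT, an agmatinase gene, did not pass (-0.16 and -0.37). The oxidase genes SMOX and PAOX, which act beside SAT1, did not pass either, with changes of -0.14 ± 0.14 and 0.31 ± 0.18. Against the non-targeting guide alone SLC12A8 and NQO1 rose by 0.59 and 0.24 (adjusted p = 0.0346 and 0.028) and SLC3A2 fell by 0.32 (adjusted p = 0.0375). In that comparison 6.84% of all tested genes were called, 3.3% higher and 3.54% lower. The calls of SLC12A8 and SLC3A2 were each lost in 8 of 12 alternatives, among them leaving out any single e3 library. That of NQO1 was lost in 6 of 12, among them leaving out either library of guide 2. All 3 were also lost without either non-targeting library, where 1 control library is left and few genes can pass. Without the first and the second, the changes were 0.51 and 0.67 for SLC12A8, 0.26 and 0.23 for NQO1, and -0.32 and -0.33 for SLC3A2. NQO1 averaged 150.3 RPKM with the e3 guides, 126.6 RPKM with the non-targeting guide and 250.4 RPKM without a guide. SLC12A8 averaged 7.94 RPKM with the e3 guides, 4.93 RPKM with the non-targeting guide and 8.92 RPKM without a guide, so the e3 means of both genes lay between those of the controls. SMOX, PAOX, SLC12A8 and NQO1 were named after their values were seen.

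**Figure D4:**
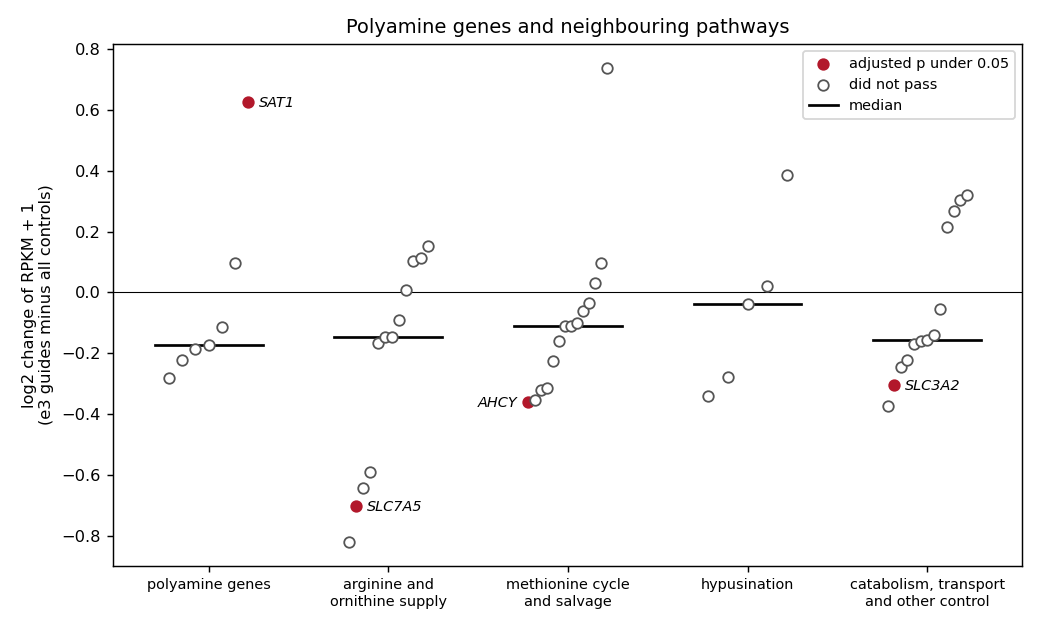
Log2 change of RPKM + 1 between the e3 guides and all controls (vertical axis) for the 7 tested polyamine genes and the tested genes of each neighbouring list; filled points had an adjusted p under 0.05 and bars are medians. SAT1 is the filled point above 0 (0.63), and SLC7A5 (-0.70), AHCY (-0.36) and SLC3A2 (-0.30) are those below.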

How the data were processed

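Poly(A) RNA of the 8 libraries was sequenced, per the labels' protocols. The deposited values are RPKM, per the file headers. Per the submitters' processing notes, hg19 is named as a build and Cufflinks as a tool, with no role. The aligner, read counting, strand setting and annotation are not given in the sources used here. Groups came from the sample titles. Columns were matched to titles by name, with the design text naming the non-targeting guide.

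Tests were run with limma 3.58.1 in R 4.3.3 on log2(RPKM + 1), with a variance trend and Benjamini-Hochberg adjustment over the 13979 genes that averaged 1 RPKM or more. Fold changes are on that scale, which understates changes of low genes. The e3 guides were compared with controls in models of 2 groups, and single guides and the controls in a model of 4 groups. Values were whole multiples of 1 read in 100% of tested genes, to within 0.03 reads, with a median of 122 reads per value. No count test was run. The 2 libraries of a group differed by more than sampling noise (chi-square per degree of freedom 1.91 to 2.12).

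The members, pathway lists and tests were chosen with earlier results of these data known. All members were named, with MYC, up to 4 genes per list by smallest p, and the 3 profiles nearest to ODC1. Same-numbered libraries did not deviate together (correlations -0.02 to 0.01). PECAM1, a listed endothelial marker, is not analysed here.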

Additional observations from a re-analysis of the deposited data

How the results depend on the processing

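The rise of SAT1 against all controls kept its direction in 16 alternatives and its call in 15 (log2 change 0.58 to 0.70). The count of members called there, 1, became 0 with group means as samples and 2 with no guide as the only control, AMD1 being added. The count was 1 without any single library. With group means 1 member was at an unadjusted p under 0.05 (limma), beside 1525 of all 13979 genes. Against the non-targeting guide the count of 3 became 0 without a filter on low values (limma, 5 at an unadjusted p under 0.05, beside 3638 of all 24832 genes). That count ranged from 0 to 3 without single libraries. It fell to 0 without either non-targeting library, where 1 control library is left and few genes can pass. Between the controls the count of 1 ranged from 0 to 1, and with guide 2 alone the count of 3 ranged from 1 to 4. The count with guide 1 was 1 and that between the guides 0 in every alternative. Replicate numbers do not pair these libraries. With the replicate number as a block the count was 1 against all controls, 2 against the non-targeting guide, where SRM was lost, 1 between the controls, 1 with guide 1, 3 with guide 2 and 0 between the guides.

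Some directions turned round. SRM against all controls became 0.065 with no guide as the only control. ODC1 between the guides became -0.00065 with median-ratio scaling, and ranged from -0.045 to 0.055 without single libraries. AZIN1 between the guides ranged from -0.015 to 0.089, and DOHH against all controls from -0.081 to 0.025. The row of OAZ2 ranged from -0.088 to 0.11 against all controls, -0.085 to 0.10 against the non-targeting guide, -0.29 to 0.29 between the controls, -0.15 to 0.27 with guide 1, -0.19 to 0.10 with guide 2 and -0.32 to 0.10 between the guides. The cause was not tested. Over all genes, 727 were called against all controls, 406 without a filter, 387 with the block, 256 with an estimated correlation within groups (0.322), 1 with group means, 2336 with no guide as the only control, and 180 to 580 without single libraries. Against the non-targeting guide 956 were called, 379 without a filter, 597 with the block and 6 to 808 without single libraries. Without single libraries the 1257 called with guide 1 became 461 to 1035, the 2022 with guide 2 became 885 to 1852 and the 1728 between the controls became 872 to 1559. Depth limits ARG2, with 0 to 10 reads per library.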
